A study of Mus musculus with 2 samples.

Results

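The genes examined here encode lysosomal hydrolases, their cofactors and lysosomal membrane proteins. They were chosen by name, as *Ctsb*, *Ctsd*, *Ctsl*, *Lamp1*, *Lamp2*, *Hexa*, *Psap*, *Cd63* and *Npc2*, and matched to the Ensembl identifiers of the expression table. Of these 9 genes, 7 were matched among the 10666 genes of the table, and *Ctsd* and *Cd63* were not analysed here. The data are single-cell RNA-seq profiles of cortical neurospheres, which are free-floating spheres of neural stem and progenitor cells, from 2 replicate cultures of 1 condition. Both cultures came from the dorsal telencephalon of wild-type C57BL/6 embryos at embryonic day 14.5 and were grown with 10 ng/ml EGF and 10 ng/ml bFGF, in repeated passages that keep the cells dividing. Culture 1 holds 5748 cells with a median of 19477 UMIs (unique molecular identifiers, which count captured transcripts), and culture 2 holds 7057 cells with a median of 14637. The paper's methods name version 3 of the droplet kit where the sample labels name version 2. There is no second condition, so no test between groups was possible, and cells of 1 culture were not treated as replicates. What the labels call replicates were not stated to come from separate embryos, and their spread may be partly technical. Among markers of neural progenitors, *Fabp7* was detected in 100% and 99.96% of cells, *Olig2* in 97.3% and 91.9% and *Pax6*, a factor of dorsal progenitors, in 21.1% and 23.1%. The cultures share 48 cell barcodes, and no level or correlation below was computed on cells joined across cultures.

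Lysosomes are acidic organelles that break down proteins, glycans and lipids delivered by endocytosis and autophagy. Most soluble hydrolases are made in the endoplasmic reticulum, tagged with mannose 6-phosphate in the Golgi and carried to the lysosome by mannose 6-phosphate receptors, while heavily glycosylated membrane proteins line the organelle. Many of these genes are regulated by the transcription factor TFEB and its relatives, which bind an E-box-like element with the core CACGTG, and in neural stem cells lysosomes are known for clearing protein aggregates and receptors during quiescence.

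The members fall into 4 roles. *Ctsb* (ENSMUSG00000021939, chr14:63122462-63145923, plus strand, GRCm38) and *Ctsl* (ENSMUSG00000021477, chr13:64359337-64370890, minus strand) encode the cysteine proteases cathepsin B and cathepsin L. *Hexa* (ENSMUSG00000025232, chr9:59539540-59565109, plus strand) encodes the alpha subunit of beta-hexosaminidase, which degrades GM2 ganglioside. *Psap* (ENSMUSG00000004207, chr10:60277627-60302597, plus strand) encodes prosaposin, the precursor of the saposins that present sphingolipids to their hydrolases, and *Npc2* (ENSMUSG00000021242, chr12:84754562-84773152, minus strand) encodes the soluble protein that hands cholesterol on to NPC1. *Lamp1* (ENSMUSG00000031447, chr8:13159161-13175338, plus strand) and *Lamp2* (ENSMUSG00000016534, chrX:38401357-38456454, minus strand) encode the abundant glycoproteins of the lysosomal membrane. All 7 are protein-coding. In the annotation *Ctsb*, *Lamp1* and *Hexa* each overlap 1 gene on the opposite strand, and *Ctsl* overlaps 2 genes, 1 on each strand.

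The sequence upstream of the 2 members that vary together most strongly in culture 1 (*Lamp1* and *Psap*, Pearson r = 0.32 over cells) is shown because it differs in the letters TFEB is known to bind. The 250 bases before the RefSeq start (GRCm38.p6) are written 5′ to 3′ in the direction of the gene, with each CACGTG in capitals. The *Lamp1* stretch is chr8:13158911-13159160 and the *Psap* stretch is chr10:60277378-60277627.
Lamp1: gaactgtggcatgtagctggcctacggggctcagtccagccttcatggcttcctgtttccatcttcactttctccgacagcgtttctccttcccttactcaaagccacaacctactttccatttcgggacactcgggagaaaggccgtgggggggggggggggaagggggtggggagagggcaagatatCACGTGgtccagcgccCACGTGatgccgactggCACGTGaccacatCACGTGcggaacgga
Psap: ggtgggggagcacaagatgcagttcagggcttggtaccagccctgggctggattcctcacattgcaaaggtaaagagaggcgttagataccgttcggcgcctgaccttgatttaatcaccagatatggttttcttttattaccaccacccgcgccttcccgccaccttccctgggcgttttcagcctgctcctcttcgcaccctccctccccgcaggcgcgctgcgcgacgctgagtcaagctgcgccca
*Lamp1* held CACGTG 4 times, with first bases 61, 45, 28 and 15 bases before the start, and *Psap* held it 0 times. CACGTG reads the same on both strands, and 6.02% of the 32851 RefSeq promoters held at least 1 match in a window of the same length, while 7 of them (0.0213%) held 4 or more. RefSeq promoters were matched for 6 of the 7 measured members, with no entry for *Ctsb*. Among the 6, *Ctsl* held 1 match, 236 bases before its start, and *Lamp2*, *Hexa* and *Npc2* held 0. The longer TCACGTG, searched on both strands and overlapping CACGTG by construction, was held by 3.13% of all promoters and by *Lamp1* of the 6. These are matches of letters and do not show that a factor binds there.

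All 7 genes were detected broadly, and each was detected in a larger share of cells in the more deeply sequenced culture 1. A cell counts as positive when its value is above 0, with intervals from the exact binomial method at 95%, which cover only the counting error. Values are 3′ tag signals normalized per cell by the authors, so genes are not ranked against each other by level.

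For the proteases, *Ctsb* was detected in 85.0% of cells in culture 1 (interval 84.0 to 85.9) and in 69.7% in culture 2 (68.6 to 70.7). Its mean deposited value was 2.05 in culture 1, with an SD over cells of 1.62, and 1.90 in culture 2 with an SD of 1.86. *Ctsl* was detected in 74.8% (73.6 to 75.9) and 53.4% (52.2 to 54.5) of cells, with means of 1.38 (SD 1.32) and 1.16 (SD 1.44). For both cathepsins the SD over cells was thus 0.790 to 1.25 times the mean. *Hexa*, the glycosidase subunit, was detected in 64.2% (62.9 to 65.4) and 47.3% (46.1 to 48.4) of cells, with means of 1.07 (SD 1.17) and 0.943 (SD 1.25).

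The lipid-handling genes were detected in nearly every cell of culture 1. *Psap* was positive in 96.1% of cells in culture 1 (95.5 to 96.5) and 87.9% in culture 2 (87.2 to 88.7), with means of 4.36 (SD 2.58) and 3.68 (SD 2.60). *Npc2* was positive in 96.2% (95.6 to 96.6) and 95.6% (95.1 to 96.1), with means of 4.62 (SD 2.69) and 4.63 (SD 2.86). *Npc2* therefore had the smallest gap in detection between the cultures. Of the membrane proteins, *Lamp1* was positive in 98.8% (98.5 to 99.1) and 94.5% (93.96 to 95.04) of cells, with means of 5.95 (SD 3.07) and 5.48 (SD 3.18). *Lamp2* was positive in 56.4% (55.1 to 57.7) and 38.3% (37.2 to 39.4), with means of 0.496 (SD 0.664) and 0.478 (SD 0.813).

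The deposited values of the cultures lay closer together than the UMI counts recovered from them. Low values of a gene fell on evenly spaced steps, each the worth of 1 UMI in that gene and culture (0.5 UMI for *Lamp2*), which allowed the counts to be recovered. For *Lamp1*, 1 UMI was worth 0.786 in culture 1 and 1.31 in culture 2, and for *Npc2* it was worth 1.08 and 0.981. Recovered UMIs are deposited values divided by the worth of a UMI, so an error in the worth enters both with opposite signs. Across 5621 genes, which are not independent replicates, their log2 ratios between the cultures had a Pearson r of -0.91. This r is largely built in and is no separate evidence. From percentile 5 to 95, log2 ratios (culture 1 to culture 2) ran from -0.19 to 0.40 for deposited means. For recovered UMIs per 10000 total UMIs they ran from -0.59 to 0.83. What made the worth of a UMI depend on the gene and culture was not tested.

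In recovered UMIs per 10000 total UMIs, *Lamp1* stood at 4.18 in culture 1 and 2.35 in culture 2, a 1.78-fold higher level in culture 1, where deposited means differ 1.08-fold. Its recovery was the least clean of the members: 73.3% of its low values in culture 1 and 86.7% in culture 2 lay within 0.1 of a whole step. *Psap* stood at 2.86 and 1.64 (1.74-fold) and *Ctsb* at 1.34 and 0.853 (1.57-fold). *Ctsl* (0.854 and 0.528), *Hexa* (0.671 and 0.450) and *Lamp2* (0.322 and 0.203) lay in the same direction. *Npc2* did not, at 2.37 in culture 1 and 2.55 in culture 2. Thus 6 of 7 members had the higher share in culture 1, with a median log2 ratio of 0.67, against 3582 of 6070 genes (59.0%) with a median of 0.09. On the deposited scale the medians were 0.12 and 0.09. The cultures are replicates of 1 condition, so this is a spread between replicates, and it is larger on the recovered scale than on the deposited one for each member. Within a culture, comparisons between cells are not touched by this scaling other than through the pseudocount.

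**Figure D1:**
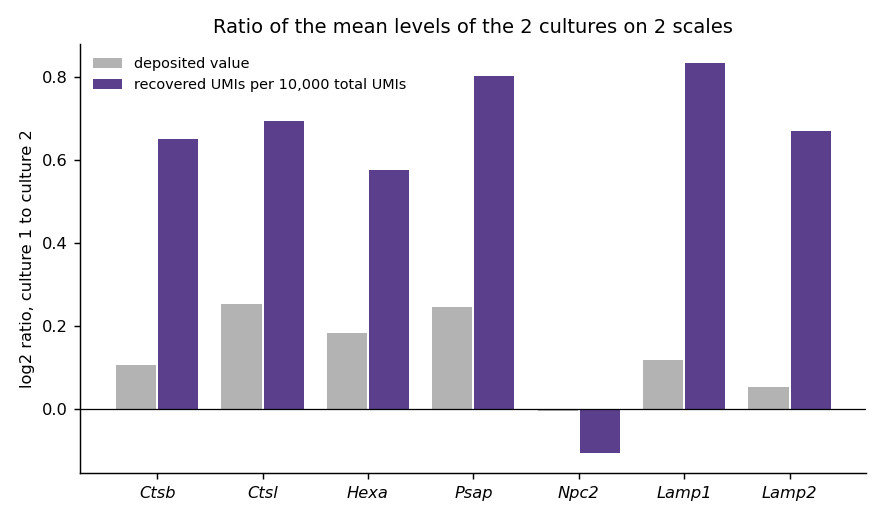
Log2 ratio of the mean level in culture 1 to that in culture 2 for each member, from deposited values (grey bars) and from recovered UMIs per 10000 total UMIs (purple bars). Recovered ratios reach 0.83 for *Lamp1* and 0.80 for *Psap*, while *Npc2* lies at -0.11.

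The cell-cycle position places each cell on a circle in radians, where cells in G1 or G0 lie near 0 and 2π and *Top2a*, the topoisomerase of G2 and mitosis, is highest near π. Each member was read along this position as log2(value + 1). In both cultures the smoothed line of each of the 7 genes was highest close to the end of the circle, between 1.87π and 1.99π, where *Top2a* was lowest (1.93π and 1.96π). No member, however, met either rule for a cell-cycle pattern. An R² of at least 0.05 from a fit of 2 harmonics in both cultures was reached by 0 of 7 members, against 4.01% of all 10666 genes. A range of at least 0.25 between the highest and lowest of 8 classes of position, in both cultures with the same or neighbouring highest class, was reached by 0 of 7, against 9.96% of all genes and 21.2% of the 4077 genes detected in at least 25% of cells of both cultures.

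The position accounted for more variance in culture 1 than in culture 2 for each member. *Lamp1* had the largest R² of the members in culture 1, where position accounted for 8.07% of its variance, and 0.797% in culture 2. *Ctsb* had 4.65% and 0.526%, *Psap* 3.38% and 0.156%, and *Npc2* 3.15% and 0.967%. *Hexa* (1.99% and 0.454%), *Ctsl* (1.90% and 0.602%) and *Lamp2* (0.842% and 0.189%) were lower still in culture 1. For scale, *Top2a* had 66.6% and 65.5%, and *Pcna*, the sliding clamp of replication, 59.6% and 43.0%. The median R² of the members was 0.0315 in culture 1 and 0.0053 in culture 2. Over the 4077 genes detected in at least 25% of cells of both cultures it was 0.0071 and 0.0052. Median ranges over the 8 classes were 0.41 and 0.20 for the members, against 0.23 and 0.18 for these genes. The difference between the cultures was not tested, as each is a single sample.

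In linear values the size of the pattern is easier to read. *Lamp1* averaged 7.15 in the 1789 cells of culture 1 between 1.75π and 2π and 4.58 in the 1064 cells between 1π and 1.25π, a 1.56-fold difference. In culture 2 the same classes (3149 and 1120 cells) averaged 5.87 and 4.96, a 1.18-fold difference. The order of these classes was thus shared while the contrast was smaller in culture 2. By log2(value + 1), the lowest *Lamp1* class of culture 2 was instead that between 1.25π and 1.5π.

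*Ctsb* averaged 2.57 and 1.48 in these classes of culture 1, a 1.73-fold difference, and 2.08 and 1.64 in culture 2. *Ctsl* averaged 1.63 and 1.05 in culture 1 and 1.27 and 0.875 in culture 2. *Ctsl* is the member whose fold between its highest and lowest class was alike in the cultures, 1.56 and 1.57, although its highest class in culture 2 was that between 1.5π and 1.75π, with 189 cells. *Hexa* averaged 1.27 and 0.746 in culture 1 and 1.03 and 0.787 in culture 2.

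*Psap* averaged 5.11 and 3.58 in culture 1 but 3.82 and 3.53 in culture 2, where its highest and lowest classes differed only 1.13-fold. *Npc2* averaged 5.17 and 3.71 in culture 1 and 4.97 and 4.08 in culture 2. *Lamp2* averaged 0.574 and 0.402 in culture 1 and 0.520 and 0.439 in culture 2, and its highest class in culture 1 was one of only 85 cells, between 1.25π and 1.5π, with 0.581. Taking classes by log2(value + 1), 6 of 7 members were highest between 1.75π and 2π in culture 1, where 22.7% of the 4077 genes were also highest. In culture 2, 4 of 7 were highest there, where 12.9% of these genes were, and the other 3 in the neighbouring class. Between 1π and 1.25π, 6 of 7 members were lowest in culture 1 and 3 of 7 in culture 2, against 12.2% and 10.8% of these genes. By a log2 fold of at least 0.25 between linear class means in both cultures, with the same or a neighbouring highest class, 4 of 7 members varied along the position, a share near the 58.2% of the 4077 genes that met this rule.

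**Figure D2:**
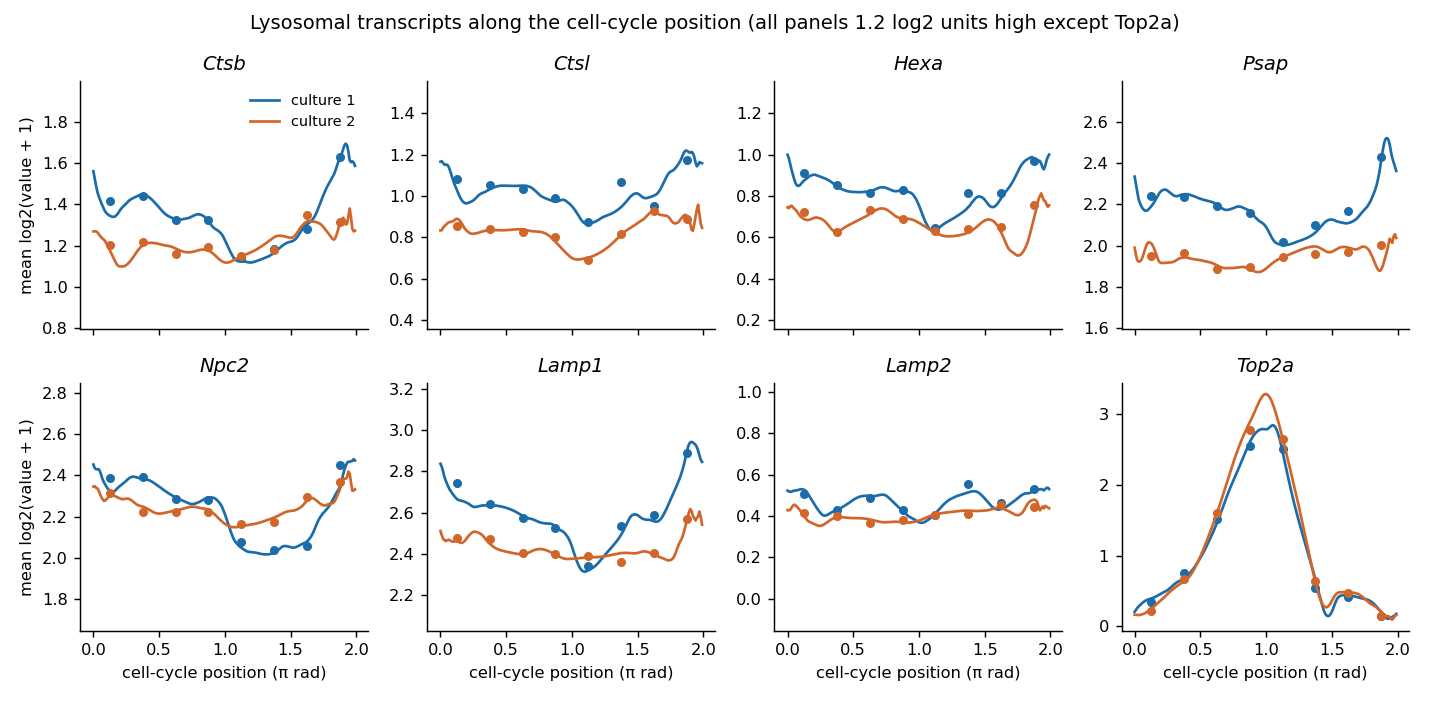
Mean log2(value + 1) of each member, and of *Top2a*, along the cell-cycle position in units of π radians, with periodic loess lines and points for the means of 8 classes of position in culture 1 (blue) and culture 2 (orange). Member panels span the same height. Lines of culture 1 have their lowest point between 1.02π and 1.31π and their highest close to 2π. Lines of culture 2 are flatter, with lowest points scattered between 0.22π and 1.75π. The 2 sparse classes between 1.25π and 1.75π hold 64 to 279 cells each.

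Of the 3 sets of stages that the authors deposited, those of Seurat and cyclone gave the same order and those of SchwabeCC did not. In cells staged G1 by Seurat each member had a higher mean value than in cells staged G2M, in both cultures (7 of 7 members, against 48.6% of the 4077 genes). The median log2 difference, G1 minus G2M, of the members was 0.51 in culture 1 and 0.25 in culture 2, against 0.06 and 0.04 over these genes, whose upper quartiles were 0.28 and 0.19. *Psap* in culture 2, at 0.09, is the only value of a member under the upper quartile of its culture. By cyclone, too, 7 of 7 members were higher in G1 than in G2M in both cultures, but no share over all genes is given for these stages.

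SchwabeCC names 5 stages, G1.S, S, G2, G2.M and M.G1, has no stage of G1 alone, and left 2451 cells of culture 1 and 3151 of culture 2 without a stage. By these, 0 of 7 members had a higher mean in M.G1 than in G2.M in both cultures, against 36.2% of the 4077 genes. In culture 1 each of the 7 was highest in G2 or G2.M, where 41.8% of these genes were highest, and *Lamp1* averaged 6.53 in G2, 5.97 in M.G1 and 5.73 in G1.S. In culture 2, 4 of 7 were highest in G2 or G2.M, against 36.2% of the genes, while *Ctsl* and *Hexa* were highest in M.G1 and *Lamp1* in S. The methods differ in the cells they name: of the 2189 cells of both cultures that SchwabeCC placed in G2 or G2.M, 1138 (52.0%) were staged G1 by Seurat. In its comparison of methods the paper found good agreement of Seurat with its position. Of SchwabeCC it reports many missing labels and G0/G1 cells wrongly given other stages. It also describes a strong relation, in these neurospheres, of SchwabeCC stages to the angle that defines the position. Cyclone, by its account, appears weak at labelling S-phase cells. The stage values that follow are those of Seurat, and the order they give holds for that method and cyclone.

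By role, *Ctsb* averaged 2.45 in G1 and 1.57 in G2M in culture 1, and 2.05 and 1.71 in culture 2, a log2 difference of 0.45 ± 0.27 (SD, n = 2 cultures). *Ctsl* differed by 0.45 ± 0.08 and *Hexa* by 0.47 ± 0.16. *Psap* differed by 0.26 ± 0.23 and *Npc2* by 0.33 ± 0.11. *Lamp1* averaged 6.97 in G1 and 4.74 in G2M in culture 1 and 5.78 and 5.01 in culture 2, a difference of 0.38 ± 0.25, and *Lamp2* differed by 0.34 ± 0.17. The difference was above 0 in both cultures for each member, while the SD of *Psap* was close to its mean.

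These values are relative to the total RNA of a cell, and cells staged G2M held more of it: the median was 21419 UMIs in G2M and 18355 in G1 in culture 1, and 16100 and 14104 in culture 2. Counted as recovered UMIs per cell, the members differed less between the stages than on the deposited scale. Total UMIs in G1 were 0.823 of those in G2M in culture 1 and 0.859 in culture 2, whereas *Lamp1* UMIs per cell were 1.19-fold higher in G1 in culture 1 (9.26 and 7.81) and equal within 1% in culture 2 (3.70 and 3.69). *Ctsb* was 1.23-fold and 1.05-fold higher in G1, *Ctsl* 1.14-fold and 1.15-fold, and *Hexa* 1.18-fold and 1.08-fold. *Npc2* (1.04-fold and 1.03-fold) and *Lamp2* (1.12-fold and 1.01-fold) were closer to even. *Psap* was 1.08-fold higher in G1 in culture 1 and stood at 0.929 of the G2M level in culture 2, the only member that was lower in G1 in a culture. The share of lysosomal transcripts was therefore higher in G1 as staged by Seurat, while the number per cell differed less between the stages, apart from *Psap* in culture 2, where it differed the other way.

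With each cell thinned to 8000 UMIs, which left out 88 cells of culture 1 and 205 of culture 2 and the half-step gene *Lamp2*, G1 stayed above G2M for all 6 genes in both cultures. Only members were thinned, so this count has no share over all genes beside it. *Ctsb* was then detected in 66.7% of G1 cells and 52.8% of G2M cells in culture 1, and in 51.3% and 46.1% in culture 2, where the unthinned shares were 87.7% and 82.0% and 70.4% and 69.8%.

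**Figure D3:**
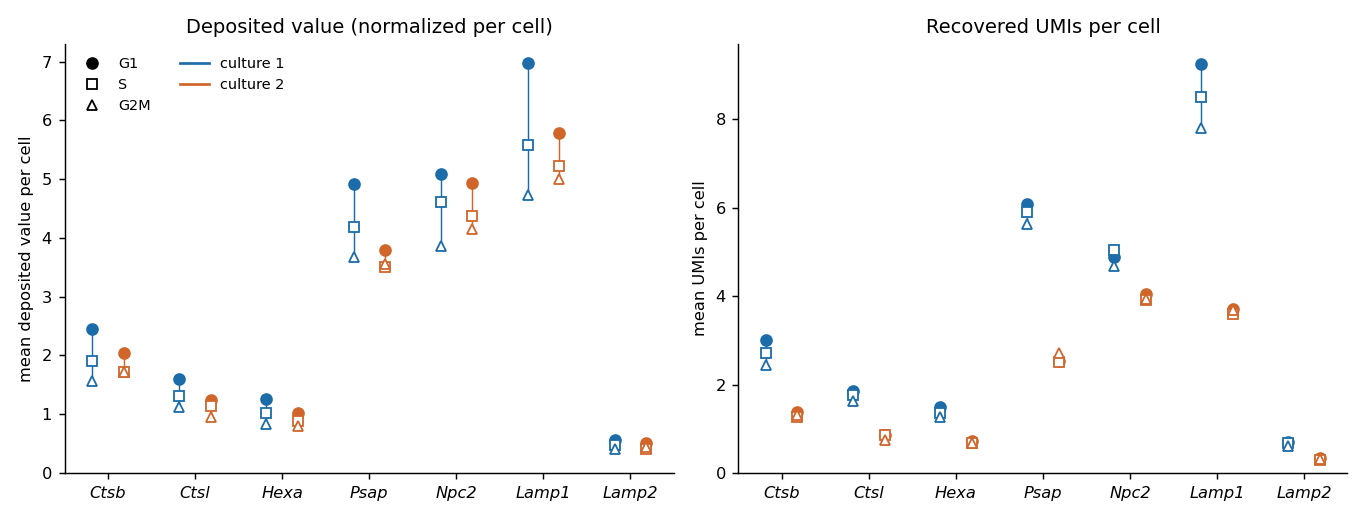
Mean level of each member in cells staged G1 (filled circles), S (open squares) and G2M (open triangles) by Seurat, in culture 1 (blue) and culture 2 (orange), as deposited value (left axis from 0) and as recovered UMIs per cell (right axis from 0). On the left, G1 is the highest stage for each member and culture, and on the right the stages nearly coincide in culture 2.

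The second question was whether the members vary together from cell to cell. They did so weakly in both cultures. All 21 pairs of the 7 genes had a positive Pearson r over cells, from 0.07 to 0.32 in culture 1 (median 0.18) and from 0.04 to 0.12 in culture 2 (median 0.06). The median over all 8308926 pairs of the 4077 genes was 0.00 in both cultures (0.0047 and 0.0048), and their 95th percentiles were 0.07 and 0.04. An r of at least 0.1 in both cultures was found for 3 of 21 pairs, against 0.604% of all pairs. The share of all pairs above 0 in both cultures is not given. These correlations rest on 5748 and 7057 cells that share a library and the noise of sparse counts, so they are given as a description and without a p-value.

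*Psap* is in each of the 3 pairs. *Lamp1* with *Psap* had the largest r in culture 1, 0.32, and 0.12 in culture 2. *Ctsb* with *Psap* had 0.27 and 0.12, the largest in culture 2, and *Ctsl* with *Psap* had 0.21 and 0.10. *Lamp1* with *Ctsb* reached 0.26 in culture 1 and 0.09 in culture 2. *Lamp2*, detected in the fewest cells, had values between 0.07 and 0.10 in culture 1 and between 0.04 and 0.05 in culture 2. Detection differs between the genes, and its part in the order of the pairs was not tested.

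**Figure D4:**
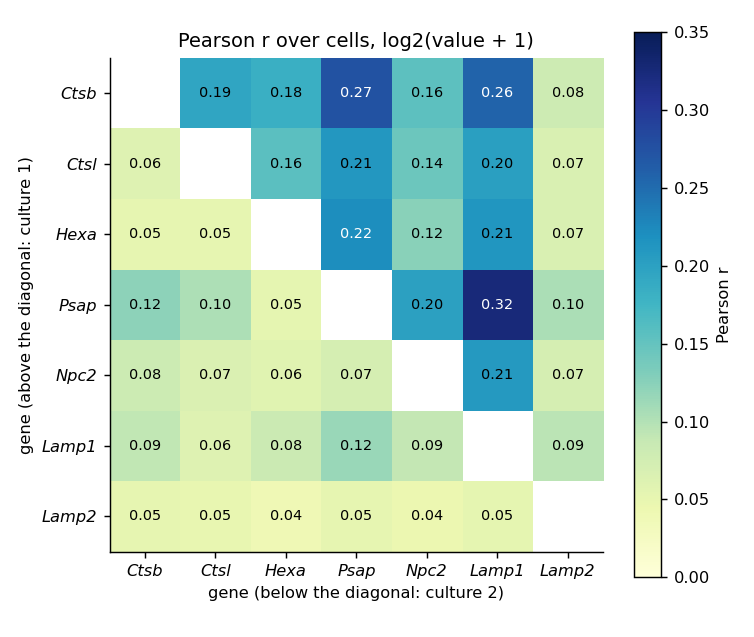
Pearson r over cells of log2(value + 1) for each of the 21 pairs of members, with culture 1 above the diagonal and culture 2 below it. The colour scale runs from 0 to 0.35, *Lamp1* with *Psap* is the darkest pair at 0.32, and no pair of culture 2 exceeds 0.12.

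Part of the correlation was shared with depth and with the position. After both were removed by regression, the median r of the pairs was 0.11 in culture 1 and 0.05 in culture 2, all 21 pairs stayed above 0 in both cultures, and *Ctsb* with *Psap* was the 1 pair at 0.1 or more in both. Within cells staged G1 the medians were 0.13 and 0.06. In counts thinned to 8000 UMIs the 15 pairs of the 6 genes had medians of 0.10 and 0.04, against 0.20 and 0.06 for the same cells and pairs without thinning, and 0 of the 15 reached 0.1 in both cultures. For none of these settings is the same value over all pairs of genes given.

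Seen from each gene, the other members ranked high. For *Lamp2*, the other 6 members had a median rank of 22 among 4076 genes in culture 1 and of 31 in culture 2. For *Npc2* the median ranks were 24 and 121, for *Ctsl* 45 and 103, for *Lamp1* 78 and 74, and for *Hexa* 74 and 108. *Psap* (126 and 158) and *Ctsb* (146 and 155) had more non-member genes ahead of the members. The nearest non-member genes, by the lower r of the cultures, were largely the same few for each member. *Igfbp2*, a secreted binding protein of insulin-like growth factors, was among the nearest 3 of *Ctsb*, *Ctsl*, *Lamp1*, *Hexa* and *Psap*, and was first for the last 3, reaching 0.43 and 0.26 with *Psap*. *Dbi*, the acyl-CoA binding protein, was first for *Ctsb* (0.34 and 0.19), and *Cd81*, a tetraspanin, for *Ctsl* (0.22 and 0.15) and *Npc2* (0.21 and 0.17). *Gabarap*, an adaptor of autophagosome membranes, was first for *Lamp2* (0.08 and 0.08) and among the nearest 3 of *Npc2* (0.23 and 0.15). The other nearest genes were *Cox6c* for *Ctsb*, *Atp5b* for *Ctsl* and *Psap*, *Slc25a4* and *S100a11* for *Lamp1*, *Mt3* and *Dbi* for *Lamp2*, *Sparcl1* and *Ramp1* for *Hexa*, *Cd81* for *Psap* and *Dbi* for *Npc2*.

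A score was formed in each cell as the mean of the standardized log2(value + 1) of the members, and each member was compared with the score of the other 6. *Psap* (r = 0.41 in culture 1 and 0.18 in culture 2) and *Lamp1* (0.40 and 0.17) followed the others most closely, then *Ctsb* (0.35 and 0.16), *Ctsl* (0.29 and 0.14), *Hexa* (0.29 and 0.12), *Npc2* (0.27 and 0.14) and *Lamp2* (0.14 and 0.10). All 7 were at 0.1 or more in both cultures, against 5.31% of the 4070 other genes measured against the full score.

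Split into 4 bins of equal numbers of cells by the score of the other members, *Hexa* averaged 0.652 in the lowest bin and 1.48 in the highest in culture 1, a 2.26-fold difference, and 0.808 and 1.17 in culture 2, a 1.45-fold difference. *Ctsb* averaged 1.305 and 2.71 in culture 1 and 1.61 and 2.30 in culture 2. *Npc2* differed least in both cultures, 1.45-fold and 1.24-fold. The bins also differed in depth and in stage: for *Ctsb*, median UMIs were 16111 in the lowest and 19921 in the highest bin of culture 1 and 13773 and 14480 in culture 2, and cells staged G1 made up 26.9% and 61.9% of these bins in culture 1 and 48.8% and 65.3% in culture 2. The score itself had an r with log2 total UMIs of 0.24 in culture 1 and 0.09 in culture 2.

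The genes most like the score outside the members were led by *Igfbp2* (0.48 in culture 1 and 0.31 in culture 2), *Cd81* (0.49 and 0.30) and *Dbi* (0.45 and 0.28). They were followed by *Atp5b* (0.44 and 0.27), a subunit of ATP synthase, *Slc25a4* (0.40 and 0.26), the mitochondrial exchanger of ADP and ATP, and *Atp5o*, *Cox6b1*, *Cox6c*, *Cox7c*, *Ndufa4* and *Cox5a*, further subunits of oxidative phosphorylation with 0.24 to 0.36 and 0.21 to 0.24. *Txn1* (0.36 and 0.22), a thioredoxin, *Gabarap* (0.33 and 0.22), *S100a11* (0.45 and 0.22) and *Mdh1* (0.34 and 0.21), a malate dehydrogenase, complete the first 15. None of the 15 is a lysosomal hydrolase.

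At the other end were *Ybx1* (-0.36 and -0.25), an RNA-binding protein, *Ptma* (-0.49 and -0.25), prothymosin alpha, *Snrpg* (-0.40 and -0.22), a splicing factor, *Set* (-0.37 and -0.21), a histone chaperone, and the ribosomal proteins *Rpl32*, *Rps18*, *Rps23*, *Rpl35* and *Rpl37* (-0.30 to -0.26 and -0.23 to -0.21). Selected by their symbols after these lists were seen, all 64 nuclear-encoded subunits of oxidative phosphorylation had a positive r with the score in both cultures, and 57 of 61 ribosomal proteins a negative one, beside 2033 positive and 1339 negative in both cultures among the 4070 other genes. After depth and position were removed the medians of these families were 0.14 and 0.12 for oxidative phosphorylation and -0.22 and -0.16 for ribosomal proteins.

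**Figure D5:**
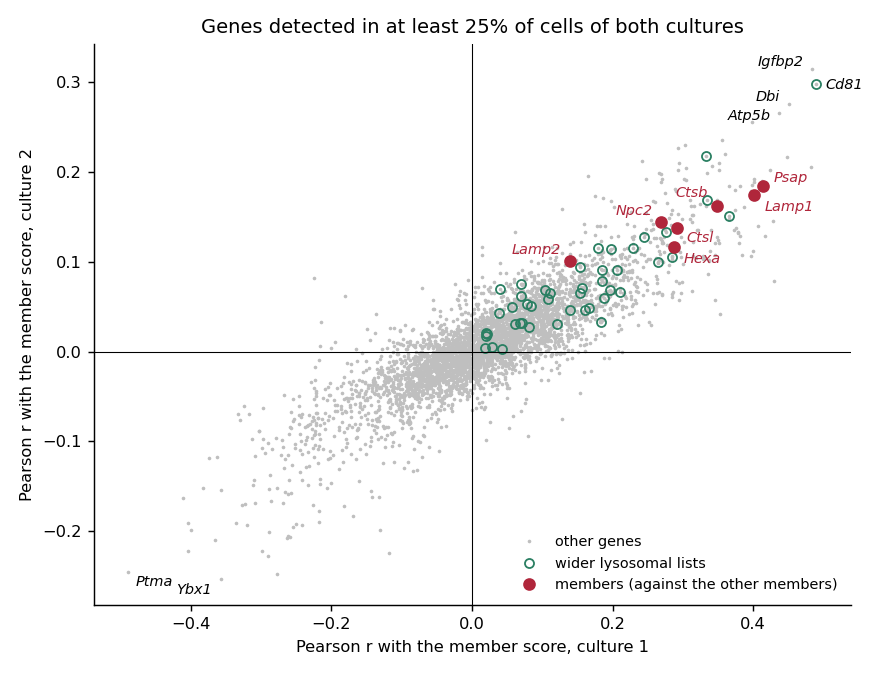
Pearson r with the member score in culture 1 (horizontal axis) against culture 2 (vertical axis) for the 4077 genes detected in at least 25% of cells of both cultures. Members (red, each against the score of the other 6) lie between 0.14 and 0.41 in culture 1, the 45 genes of the wider lysosomal lists (green rings) are all above 0 in both cultures, and *Igfbp2* and *Cd81* lie at the upper right end.

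Other lysosomal genes were read from lists of 114 further genes, of which 88 had a row and 45 were detected in at least 25% of cells of both cultures. All 45 had a positive r with the score in both cultures, as did 50% of the 4070 other genes, with medians of 0.15 in culture 1 and 0.07 in culture 2, against 0.02 and 0.01 for all 4070 other genes, and 10 of the 45 were at 0.1 or more in both. After depth and position were removed 41 of the 45 were positive in both, with medians of 0.07 and 0.05, against 1786 of the 4070 other genes with medians of 0.0040 and 0.0033. By the range rule 11 of the 88 and by the R² rule 1 of the 88 (*Cd81*) varied along the position, against the 9.96% and 4.01% of all genes given above.

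In each list the highest genes were taken by the lower r of the 2 cultures and the lowest by the higher r, so that the order in a single culture can differ and a gene can fall under both. Among the 10 further hydrolases and activators the highest were *Ctsc* (0.36 and 0.15), the protease cathepsin C, *Tpp1* (0.23 and 0.11), a tripeptidyl peptidase, *Asah1* (0.29 and 0.11), acid ceramidase, *Ctsa* (0.21 and 0.09), which protects other lysosomal enzymes, and *Ppt1* (0.10 and 0.07), a thioesterase. *Scpep1* (0.04 and 0.04) and *Gusb* (0.12 and 0.03), beta-glucuronidase, were among the lowest, as was *Ppt1* again. Of the 10 membrane proteins, *Cd81* was followed by *Laptm4a* (0.33 and 0.17), *Cd9* (0.28 and 0.13), *Tmem106b* (0.18 and 0.08) and *Laptm4b* (0.20 and 0.07). *Lamtor3* (0.02 and 0.02), *Lamtor1* (0.11 and 0.06) and *Lamtor2* (0.11 and 0.07), scaffold subunits that anchor mTORC1 signalling, were the lowest. *Cd9* and *Cd81* are tetraspanins that are also known at the plasma membrane.

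The 12 subunits of the V-ATPase, the proton pump that acidifies the lysosome, had medians of 0.15 and 0.06. *Atp6v1e1* (0.25 and 0.13), *Atp6v1g1* (0.20 and 0.11), *Atp6ap1* (0.26 and 0.10), *Atp6v1d* (0.15 and 0.09) and *Atp6ap2* (0.16 and 0.07) were the highest and *Atp6v0a1* (0.06 and 0.05), *Atp6v1b2* (0.07 and 0.03) and *Atp6v0e* (0.07 and 0.07) the lowest. The 6 genes of hydrolase sorting were closer to the background, with medians of 0.04 and 0.01. *M6pr*, a mannose 6-phosphate receptor, had 0.06 and 0.03, *Vps35* and *Vps26a* of the retromer 0.08 and 0.05 and 0.02 and 0.0039, and *Gga1*, *Ap1s1* and *Ap3d1*, coat adaptors, between 0.02 and 0.04 in culture 1 and between 0.0031 and 0.02 in culture 2.

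Among TFEB regulators and autophagy genes, *Gabarap* had the highest r in both cultures, given above. The others were *Sqstm1* (0.18 and 0.12), an autophagy receptor, *Rab7* (0.19 and 0.09), *Zkscan3* (0.07 and 0.03), *Rragc* (0.02 and 0.02), *Gabarapl1* (0.07 and 0.06) and *Gabarapl2* (0.04 and 0.07). *Tfeb* was detected in 10.1% and 8.22% of cells, under the limit of 25%, and had an r of 0.10 and 0.04. As a comparison from the secretory pathway, 9 chaperones of the endoplasmic reticulum had medians of 0.09 and 0.06, and 13 genes of cholesterol synthesis 0.07 and 0.05. The cathepsin inhibitors listed (*Cst3*, *Cstb* and *Cst6*) were not analysed here. In G1 against G2M, 9 of 10 hydrolases, 9 of 10 membrane proteins, 11 of 12 V-ATPase subunits and 7 of 7 TFEB and autophagy genes were higher in G1 in both cultures, as were 1 of 6 sorting genes, 6 of 9 chaperones and 11 of 13 genes of cholesterol synthesis, beside the 48.6% of all these genes. The genes of cholesterol synthesis had medians of 0.43 and 0.21 for this log2 difference, beside 0.51 and 0.25 for the members.

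The marker lists of cell types differed in how they moved with the score. The 6 of 10 astrocyte markers that were measured (*S100b*, *Aldh1l1*, *Apoe*, *Gja1*, *Slc1a2* and *Mlc1*) all had a positive r with it in both cultures, highest for *Apoe* (0.42 and 0.20), which carries lipids, and *Mlc1* (0.37 and 0.15). Their summed value averaged 1.93 in the lowest and 7.78 in the highest of 4 bins of the score in culture 1, and 3.597 and 12.1 in culture 2. In culture 2 the medians of these bins lay closer together than the means, at 2.097 and 3.91. The r of the log2 astrocyte sum with the score was 0.51 in culture 1 and 0.24 in culture 2, so the association was weaker in culture 2. *Slc1a3*, a glutamate transporter among the 8 of 10 radial glia markers measured, had 0.42 and 0.13. In that list 4 of the 8 were positive in both cultures, as were 50% of the 4070 other genes. Its sum averaged 116 and 156 in culture 1 and 129 and 144 in culture 2. Of the 5 oligodendrocyte progenitor markers, *Pdgfra* (-0.25 and -0.05), *Olig2* (-0.12 and -0.03) and *Sox10* (-0.10 and -0.03) were negative, *Bcan* (0.20 and 0.13) was positive and *Cspg4* (-0.09 and 0.01) differed in sign. Their sum averaged 9.33 in the lowest and 8.52 in the highest bin in culture 1, and 8.20 and 8.11 in culture 2. The medians in culture 2 ran the other way, 7.22 and 7.31, and the r of the log2 sum with the score was -0.04 in culture 1 and 0.04 in culture 2. Both neuronal markers measured, of 10 listed, were negative, *Dcx* with -0.18 and -0.02 and *Map2* with -0.13 and -0.02, and their sum averaged 2.38 and 1.54 in culture 1 and 1.89 and 1.67 in culture 2. *Dcx* was detected in 7.34% and 1.56% of cells, *Pdgfra* in 8.77% and 1.81%, *Sox10* in 4.26% and 0.751% and *Cspg4* in 11.8% and 13.7%. These shares lie under the limit of 25%, as do those of *S100b*, *Gja1* and *Slc1a2* in at least 1 culture. With the sums of these 4 lists removed along with depth and position, the pairs of members had medians of 0.08 and 0.04, and all 21 remained above 0 in both cultures. The same values over all pairs of genes are not given. Markers of microglia, vessels and blood were not analysed here, and the part of such cells in these values was not tested.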

How the data were processed

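Single-cell RNA-seq (10x Chromium, 3′ tags) was measured in 2 cultures of 1 condition. The authors quantified spliced transcripts with alevin (Salmon 1.3.0) on GRCm38, left out cells that were outliers in depth, detected genes, mitochondrial fraction or a doublet score, and dropped mitochondrial and rare genes. Cells were not filtered again here, for doublets or otherwise. The deposited expression values are a signal on a linear scale, normalized per cell by the authors. Each cell comes with a deposited total of its estimated counts, and position and stages are other values that the authors gave per cell. Medians of 19477 and 14637 UMIs per cell make low values more precise in culture 1.

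UMIs were recovered from the spacing of low values, gene by gene and culture by culture. Of nonzero values, a median over genes of 95.6% and 95.8% lay within 0.1 of a whole step, and 12.0% of genes had steps of 0.5 UMI. Values were analysed as log2(value + 1), with 2 harmonics of the position, 8 classes 0.25π wide, periodic loess (degree 2, span 0.3) and Pearson correlations in each culture. The limits were an R² of 0.05, a range of 0.25, an r of 0.1 and detection in 25% of cells. Depth was removed with log2 total UMIs and its square. The R² and range rules and the pair correlation were tried on permuted values with planted patterns. The planted curve was larger than the range of any member, so recovery of patterns as small as theirs was not tested. The recovery of UMIs was not part of that trial. Python 3.11.15, numpy 2.4.6, scipy 1.17.1 and pandas 2.3.3 were used. Coordinates are from GENCODE, and promoters from RefSeq GRCm38.p6, both other releases than the authors' annotation.

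The members and lists were chosen with earlier results of these data known. Genes named are the members, the 5 highest and 3 lowest of each lysosomal list by r with the score (all of a list under 9 genes), the 15 highest and 10 lowest of other genes, the nearest 3 of each member, *Top2a*, *Pcna* and cell type markers. One gene under this rule is not reported here. *Tfeb* was added after its values were seen. Alternatives were other pseudocounts, linear values, deep cells, other limits, spans and classes, rank correlation, residuals, thinning and each culture alone. With 1 condition no test between groups was made and no p-value is given.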

Additional observations from a re-analysis of the deposited data

How the results depend on the processing

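Of 53 alternative values, 46 stayed within 1 SD between the 2 cultures of the value reported (within 1.5 times for counts), a wide margin for correlations. By the stages of SchwabeCC, 0 of 7 members were higher in M.G1 than in G2.M in both cultures, where 7 of 7 were higher in G1 than in G2M by Seurat. No member passed the R² rule under any alternative that used both cultures, and with each culture alone the count ranged from 0 to 1. The count by the range rule, 0 in the report, was 4 with a pseudocount of 0.1, 4 with linear values and 1 in cells at or above the median UMIs of their culture, and ranged from 0 to 6 with each culture alone, culture 1 giving 6. The median mean level of the members was 1.32 as log2(value + 1) and 1.97 on the linear scale, which differ in unit. The lines of 7 members were highest within 0.5π of position 0, and of 6 with a pseudocount of 0.1. The mean of the cultures' median pair r was 0.12, between 0.06 and 0.18 with each culture alone, 0.08 with depth and position removed, 0.07 in thinned counts of 6 members and 0.06 with depth, position and marker sums removed. For the wider lists the mean of the cultures' median r with the score was 0.11, and 0.06 with depth and position removed. The marker sums, thinning of pairs, the other stage methods and the residual score were chosen after seeing the data. No paired analysis was possible because there is 1 group. *Lamp2* and *Hexa* were detected in 38.3% and 47.3% of cells of culture 2.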
